A study of Mus musculus with 6 samples.

Results

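This report covers the RNA of 10 genes in mouse liver, namely the sirtuins Sirt1 to Sirt7, the PGC-1 coactivators Ppargc1a and Ppargc1b, and Tfam. They were chosen by name among 52459 genes counted, of which 17032 had enough reads to be tested, all 10 among them. Sirt3 was chosen on its own rise in these livers, so its values are given as a description and no significance is read from them. The livers came from 6 male Alb-Cre/Cas9 F1 mice (C57BL6J) aged 8 months. Of these, 3 had received AAV8-U6-sgCtrl (control guide RNA, mice 5.1, 7.1 and 7.2) and 3 AAV8-U6-sgPrdx2 (guide RNA against Prdx2, mice 1.1, 1.3 and 3.2) into a vein at 4 to 5 weeks. Both groups shared every other exposure: Cas9 switched on by Alb-Cre, 100 mg/kg of the carcinogen diethylnitrosamine (DEN) 3 weeks after the vector, and from 1 week later a choline-deficient high-fat diet (CDAHFD) for 6 months. No mouse without Cas9, DEN or the diet was sequenced here. Alb-Cre acts in hepatocytes, whereas the RNA was taken from whole liver, which also holds macrophages, stellate, endothelial and bile duct cells, and staining in the study still found islets of hepatocytes with PRDX2 protein.

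Sirtuins are enzymes that remove acetyl and other acyl groups from proteins and use up NAD+ in doing so, which ties them to the energy state of the cell. SIRT1, SIRT6 and SIRT7 work mainly in the nucleus, SIRT2 mainly in the cytosol, and SIRT3, SIRT4 and SIRT5 in mitochondria. PGC-1α and PGC-1β, encoded by Ppargc1a and Ppargc1b, are coactivators that switch on nuclear genes for mitochondrial respiration through partners such as the estrogen-related receptors, NRF1 and GABP, and in liver PGC-1α also drives gluconeogenic genes during fasting. TFAM coats mitochondrial DNA and starts its transcription. In hepatocytes SIRT3 is the main deacetylase of mitochondrial enzymes, among them those of fat oxidation and ketone synthesis, and SIRT1 can deacetylate PGC-1α.

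The promoter sequences shown are those of Sirt3, Tfam and Sirt5, the member with the largest difference, the factor of mitochondrial DNA, and the one member window with a half-site for the receptors that PGC-1 coactivates. Each runs 5′ to 3′ on the strand of its gene from 250 bases before to 50 bases after the start base in RefSeq (GRCm38.p6). The windows lie at chr7:140882260-140882559 on the minus strand for Sirt3, chr10:71237995-71238294 on the minus strand for Tfam, and chr13:43365285-43365584 on the plus strand for Sirt5. Capitals mark matches on either strand to CCGGAAG (the ETS core bound by GABP), GGGCGG (the GC box) or AAGGTCA (the estrogen-related receptor half-site).
Sirt3: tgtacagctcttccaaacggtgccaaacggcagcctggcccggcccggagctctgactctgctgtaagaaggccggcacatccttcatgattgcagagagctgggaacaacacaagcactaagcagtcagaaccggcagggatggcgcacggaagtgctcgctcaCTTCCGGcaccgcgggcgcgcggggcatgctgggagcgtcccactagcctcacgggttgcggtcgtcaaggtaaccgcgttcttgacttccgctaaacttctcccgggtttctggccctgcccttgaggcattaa
Tfam: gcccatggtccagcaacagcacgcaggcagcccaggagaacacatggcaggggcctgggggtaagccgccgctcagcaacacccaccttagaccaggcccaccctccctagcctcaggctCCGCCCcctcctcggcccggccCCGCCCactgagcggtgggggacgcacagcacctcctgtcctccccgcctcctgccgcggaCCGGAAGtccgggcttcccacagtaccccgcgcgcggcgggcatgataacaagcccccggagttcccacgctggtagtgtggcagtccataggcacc
Sirt5: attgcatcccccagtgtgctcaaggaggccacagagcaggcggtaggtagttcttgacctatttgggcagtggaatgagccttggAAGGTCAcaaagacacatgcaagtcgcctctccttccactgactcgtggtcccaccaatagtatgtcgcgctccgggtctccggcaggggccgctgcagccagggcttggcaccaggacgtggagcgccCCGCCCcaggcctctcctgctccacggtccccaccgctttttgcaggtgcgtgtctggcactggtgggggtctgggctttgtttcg

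The Sirt3 window held 1 ETS core and no GC box, and 184 of its 300 bases also belonged to the window of Psmd13, a proteasome subunit gene that starts 84 bases away and runs in the opposite direction. A second RefSeq start of Sirt3 further into the gene had 4 GC boxes and no ETS core in its window. The Tfam window held 1 ETS core and 2 GC boxes, and the Sirt5 window held 1 receptor half-site and 1 GC box. Of 32851 promoter windows of this length in mouse, 8.86% held the ETS core, 35.7% the GC box and 4.72% the receptor half-site. Among the 11 windows of members, 4 held the ETS core (Sirt3, Sirt6, Sirt7 and Tfam), and 7 held the GC box (Sirt1, Sirt2, Sirt3, Sirt5, Sirt6, Sirt7 and Tfam). The NRF1 core GCATGCGC lay in the windows of Sirt6 and Sirt7 and in 2.71% of all windows. No member window held TGACGTCA, the cAMP response element, or GTAAACA, the FOXO site, which lay in 1.79% and 3.65% of all windows. The GC content was 61.0% for Sirt3, 70.3% for Tfam, 52.0% for Sirt4 and 48.7% for Ppargc1a, against a median of 52.7%. A match is a description of the letters, and the window of Ppargc1b was not analysed here.

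Whole libraries differed between the groups in the summed levels of most cell type marker lists. Total counts ranged from 37462102 to 56865293 per liver, so that 3 counts stood for 0.0555 to 0.0921 normalized CPM (reads of a gene relative to the TMM-scaled library size), counting error only. Prdx2 RNA, which small insertions and deletions need not lower, was 119 ± 11.6 CPM in sgCtrl and 120 ± 26.1 CPM in sgPrdx2 livers (SD, n = 3, log2 fold change 0.01), so it did not check the labels. The summed level of 7 hepatocyte markers was 76470 to 81618 CPM in sgCtrl and 130489 to 177047 CPM in sgPrdx2 livers. Over the same groups, 6 macrophage markers summed to 1215 to 1649 against 869 to 896 CPM, 6 stellate cell markers to 1139 to 1668 against 913 to 978 CPM, 5 bile duct markers to 1624 to 1852 against 1216 to 1389 CPM, and 5 lymphocyte markers to 78.3 to 90.3 against 39.8 to 58.7 CPM (two-sided exact permutation tests, p = 0.1 each, the smallest that 3 livers against 3 allow). The 5 endothelial markers overlapped, at 195 to 229 against 144 to 224 CPM (exact permutation test, p = 0.5). Single genes made up most of some sums, with Spp1 at 1578 in sgCtrl and 1150 CPM in sgPrdx2 livers among the bile duct markers. Ptprc, a gene of leukocytes in general, was at 66.6 and 36.3 CPM among the lymphocyte markers, of which Cd3e, Cd79a and Nkg7 overlapped between the groups. Alb was at 60214 and 117782 CPM among the hepatocyte markers. Taken one by one, 6 of 7 hepatocyte, 3 of 6 macrophage and 4 of 6 stellate cell markers separated the groups. For bile duct, lymphocyte and endothelial markers it was 2 of 5 each. Over all genes tested 34.2% separated the groups, so with so few markers 2 of 5 or 3 of 6 lies near that share. Every marker of these lists had a mean of at least 2.32 CPM in both groups. The part of this shift in the members' values was not tested, and in whole liver fewer cells of a type and less RNA per cell cannot be told apart.

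Of the 10 members, 9 had a higher fitted level in sgPrdx2 livers and Sirt1 a lower one (6 higher under library-total or housekeeping scaling), with a median log2 fold change of 0.41 against -0.02 over all genes tested. One, Sirt3, had an adjusted p under 0.05 in edgeR's quasi-likelihood test across all 17032 genes, where 3.33% of genes were called and 1.79% were called higher, and since Sirt3 was selected on this contrast nothing is read from that count. It was 0 without sgCtrl 5.1, sgCtrl 7.2, sgPrdx2 1.1 or sgPrdx2 1.3. The number of members above 0 was 9 in each fit that left out 1 liver, with Sirt6 in place of Sirt1 below 0 without liver 3.2. In 7 members every sgPrdx2 liver lay above every sgCtrl liver, namely Sirt2, Sirt3, Sirt4, Sirt5, Sirt7, Ppargc1b and Tfam. Sirt3, chosen on its rise, is included in these 7, in the 9 higher and in the median, and nothing is read from its part in them. Such a gap between the groups was common in these livers, at 34.2% of genes tested in either direction and 16.7% with every sgPrdx2 liver above every sgCtrl liver. The ranges of Sirt1, Sirt6 and Ppargc1a overlapped.

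**Figure D1:**
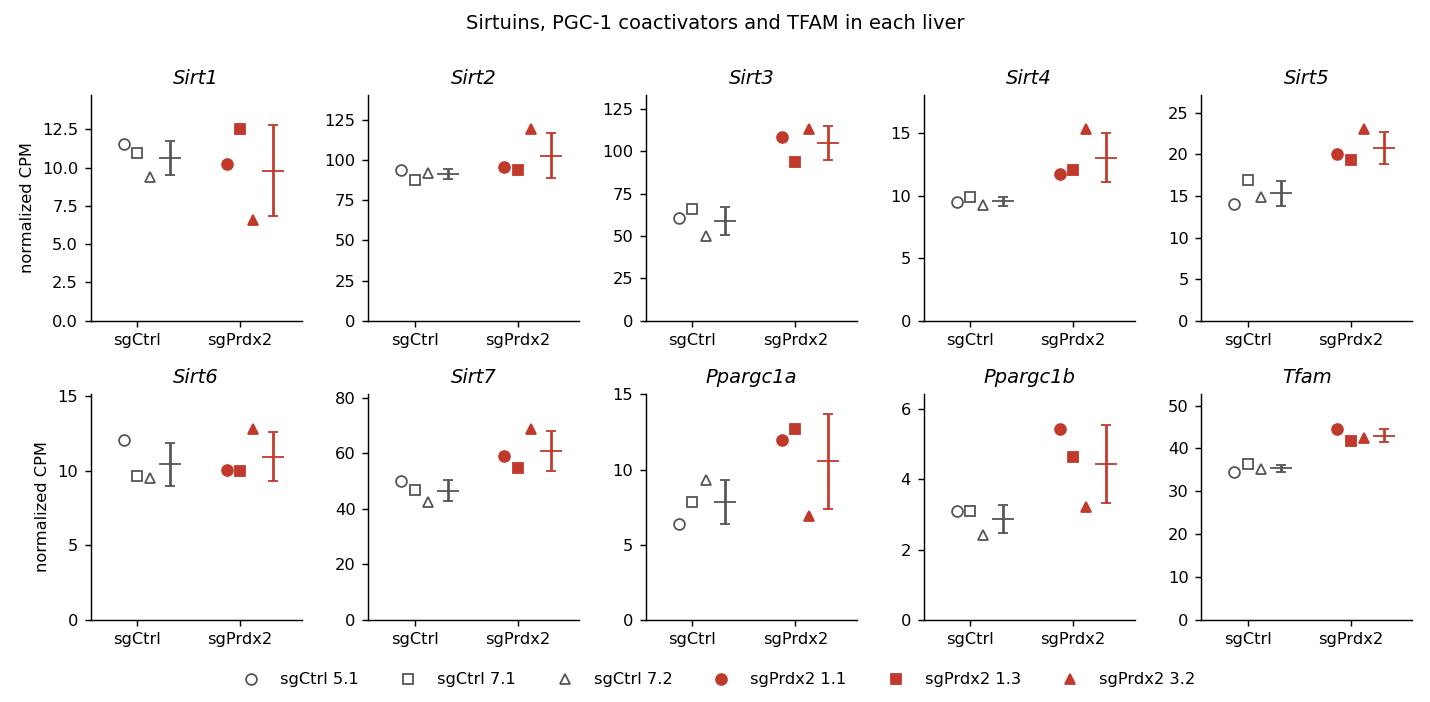
Normalized CPM of each of the 10 genes (y axis, from 0, a scale of its own per gene) in the 3 sgCtrl livers (open grey symbols) and the 3 sgPrdx2 livers (filled red symbols), with the mean and SD of each group as a bar to the right. Sirt3 lay at 49.9 to 65.8 CPM in sgCtrl and 94.0 to 113 CPM in sgPrdx2 livers, while the ranges of Sirt1, Sirt6 and Ppargc1a overlapped.

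Sirt3, the main mitochondrial deacetylase, spans chr7:140863666-140882309 on the minus strand (ENSMUSG00000025486.17, GRCm38). Its normalized level was 60.8, 65.8 and 49.9 CPM in sgCtrl livers 5.1, 7.1 and 7.2, and 109, 94.0 and 113 CPM in sgPrdx2 livers 1.1, 1.3 and 3.2. These values rest on 2625 to 2958 reads per sgCtrl and 3678 to 5082 reads per sgPrdx2 liver. The groups stood apart by more than the whole spread within either one, with means of 58.8 ± 8.10 and 105 ± 9.95 CPM (SD, n = 3), 1.79-fold or 0.84 on the log2 scale (standard error 0.15). It was the largest log2 fold change among the 10 members. The difference stayed between 0.73 and 0.93 when any one liver was left out. Both describe the values on which Sirt3 was chosen, and nothing is read from either.

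Sirt3 overlaps other genes, none of which passed the test. Its exons overlap 342 bases of Psmd13 and 418 bases of Ric8a, a chaperone gene of G protein subunits, both on the other strand, and whether the counting used strand is not given in the sources used here. Psmd13, whose promoter window overlaps that of Sirt3, was at 81.2, 80.4 and 92.3 CPM in the sgCtrl livers and 92.1, 83.3 and 115 CPM in the sgPrdx2 livers. Its groups overlapped, with a log2 fold change of 0.19 (standard error 0.16, edgeR adjusted p = 0.470). Ric8a was nearly level across all 6 livers, at 39.0 to 42.4 CPM, with a log2 fold change of -0.01 (standard error 0.11, edgeR adjusted p = 0.956). Bet1l, the next gene on the lower side, a vesicle transport gene, had 0.25 (adjusted p = 0.420 from edgeR), and Cox8b, a cytochrome c oxidase subunit gene on the higher side with 0.285 CPM in sgCtrl and 0.635 CPM in sgPrdx2 livers, had 1.16 (adjusted p = 0.177).

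The 5 genes whose log2 CPM followed Sirt3 most closely over the 6 livers were Capn3 (a muscle-type calpain protease), Entpd8 (a nucleotide-hydrolysing enzyme of the bile canaliculus), Hebp1 (a heme-binding protein), Pitpnb (a phosphatidylinositol transfer protein) and Gm8883, each with a Pearson r of 0.997 to 0.998. This is a description over 6 points that share the group difference, and 768 of 14122 genes of at least 1 CPM had an r above 0.9. With each group centred on its own mean, r was 0.971 to 0.988 for the same genes, over 3 livers a group. The genes were picked by r over these same livers, so a high value here was largely given by the choice.

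Sirt4 and Sirt5, the other mitochondrial sirtuins, were also higher in every sgPrdx2 liver, by less than Sirt3, and neither passed the test. Sirt4 (chr5:115478010-115484725, minus strand), known to restrain glutamate and fatty acid breakdown, was at 9.46, 9.92 and 9.27 CPM in sgCtrl and 11.7, 12.1 and 15.3 CPM in sgPrdx2 livers. That gave a log2 fold change of 0.45 (standard error 0.15, edgeR adjusted p = 0.124). The SD was 0.337 CPM among sgCtrl and 1.97 CPM among sgPrdx2 livers, where liver 3.2 was the highest.

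Sirt5 (chr13:43365496-43395203, plus strand), which removes succinyl, malonyl and glutaryl groups and activates the urea cycle enzyme CPS1, was at 14.1, 16.9 and 14.9 CPM in sgCtrl and 20.0, 19.4 and 23.0 CPM in sgPrdx2 livers. The lowest sgPrdx2 liver lay above the highest sgCtrl liver, and the log2 fold change was 0.44 (standard error 0.13, edgeR adjusted p = 0.1004). Of the 2376 stretches of 50 bases in its longest transcript, 36.9% also occur in transcripts of other genes, so part of its reads may not have been assigned to it. For the longest transcripts of Sirt2, Sirt3, Sirt4, Sirt6 and Ppargc1b this share was 0. Exons of all transcripts do overlap other genes, with 342 bases of Psmd13 and 418 of Ric8a for Sirt3, and 42 of Nfkbib for Sirt2.

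Of the sirtuins outside mitochondria, Sirt7 differed most between the groups, Sirt2 little, and Sirt1 and Sirt6 by less than their spread. Sirt7 (chr11:120618372-120625240, minus strand), a nuclear and nucleolar sirtuin linked to ribosomal RNA synthesis, was at 50.03, 46.8 and 42.6 CPM in sgCtrl and 59.2, 54.5 and 68.9 CPM in sgPrdx2 livers. The groups did not overlap, and the log2 fold change of 0.39 (standard error 0.14) had an edgeR adjusted p of 0.138. Its exons overlap 124 bases of Mafg, a small MAF transcription factor gene, which had a log2 fold change of 0.09 (edgeR adjusted p = 0.760). Pcyt2, which makes a precursor of phosphatidylethanolamine and lies 435 bases from Sirt7, had 0.73 (edgeR adjusted p = 0.0741). Pycr1, a proline synthesis gene on the other side, was at -0.96 (edgeR adjusted p = 0.147).

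Sirt2 (chr7:28766735-28788661, plus strand), a tubulin deacetylase, was at 93.6, 87.8 and 92.3 CPM in sgCtrl and 96.0, 93.6 and 119 CPM in sgPrdx2 livers. The groups missed each other by less than the last digit given, at 93.6 CPM on both sides, and the log2 fold change of 0.17 had a standard error of 0.14 (edgeR adjusted p = 0.467). Sirt6 (chr10:81621785-81627797, minus strand), a chromatin deacetylase that restrains glycolytic genes, was at 12.1, 9.68 and 9.55 CPM in sgCtrl and 10.05, 9.97 and 12.8 CPM in sgPrdx2 livers. One liver in each group was high and the others lay between 9.55 and 10.05 CPM, and the log2 fold change was 0.07 (95% interval -0.32 to 0.45, edgeR adjusted p = 0.819).

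Sirt1 (chr10:63319005-63381704, minus strand), the nuclear deacetylase of PGC-1α and FOXO factors, was at 11.6, 10.9 and 9.40 CPM in sgCtrl and 10.3, 12.5 and 6.60 CPM in sgPrdx2 livers. The highest and the lowest of the 6 were both sgPrdx2 livers, and the log2 fold change was -0.12 (95% interval -0.65 to 0.42, edgeR adjusted p = 0.782). Without liver 3.2 it was 0.11. These intervals leave room for a change of either sign in Sirt1 and Sirt6.

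The PGC-1 coactivators were the members with the lowest levels per length, and liver 3.2 stood apart from the other sgPrdx2 livers in both. Ppargc1a (chr5:51454250-51567726, minus strand) was at 6.40, 7.85 and 9.30 CPM in sgCtrl and 11.98, 12.7 and 6.91 CPM in sgPrdx2 livers. Livers 1.1 and 1.3 lay above all sgCtrl livers and liver 3.2 within them, so the log2 fold change of 0.43 had a standard error of 0.25 (edgeR adjusted p = 0.331). Leaving out 1 liver at a time gave 0.29 (without sgPrdx2 1.3, edgeR adjusted p = 0.555) to 0.66 (without sgPrdx2 3.2, edgeR adjusted p = 0.0768).

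Ppargc1b, on chromosome 18, encodes the coactivator with the closer ties to fat synthesis in liver. It was at 3.11, 3.09 and 2.42 CPM in sgCtrl and 5.45, 4.64 and 3.22 CPM in sgPrdx2 livers, from 105 to 251 reads per liver. Liver 3.2 was again the lowest of its group, just above the sgCtrl livers, and the log2 fold change was 0.63 (standard error 0.24, edgeR adjusted p = 0.154). Leaving out 1 liver at a time gave 0.46 (without sgPrdx2 1.1, edgeR adjusted p = 0.352) to 0.82 (without sgPrdx2 3.2, edgeR adjusted p = 0.0613). Arhgef37, its nearest tested neighbour, had a log2 fold change of 0.87 (edgeR adjusted p = 0.203). Mir378a, the microRNA gene in an intron of Ppargc1b, was at 0.00634 CPM in sgCtrl and 0.0199 CPM in sgPrdx2 livers, under 3 counts, and was not tested.

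Tfam (chr10:71225464-71238280, minus strand) had the smallest spread within both groups relative to its level. Its level was 34.5, 36.3 and 35.2 CPM in sgCtrl and 44.6, 41.8 and 42.4 CPM in sgPrdx2 livers, or 35.3 ± 0.864 against 42.9 ± 1.502 CPM (SD, n = 3). The gap between the groups was wider than either group, but the log2 fold change was small, 0.28 (standard error 0.10, 95% interval 0.04 to 0.52), and did not pass the test over all genes (edgeR adjusted p = 0.155). Its neighbours Bicc1, an RNA-binding protein gene, and Ube2d1, a ubiquitin-conjugating enzyme gene, had log2 fold changes of -0.50 and -0.23 (edgeR adjusted p of 0.132 and 0.396).

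The remaining neighbours of members were as follows. Herc4 and Dnajc12 beside Sirt1 were at 0.07 and 0.21 on the log2 scale, Nfkbib, which overlaps Sirt2, and Rinl beside it at 0.30 and -0.49, and Pxn beside Sirt4 at -0.22. Gfod1 and Nol7 beside Sirt5 were at -0.43 and 0.24, BC025920 and Ankrd24 beside Sirt6 at 0.18 and 0.11, and Adgra3 and Dhx15 beside Ppargc1a at -0.01 and -0.33. Of all 32 neighbours and overlapping genes 21 were tested. Among these edgeR called none, with 5 unadjusted p under 0.05, a smallest adjusted p of 0.0741 and a median of 0.09. DESeq2 called 2, Pcyt2 (higher) and Rinl (lower). Over all genes, 4241 of 17032 had an unadjusted edgeR p under 0.05. DESeq2 called 2048 of the 28631 genes it fitted, 13302 of which had no adjusted p.

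Liver 3.2 set much of the spread among sgPrdx2 livers, in opposite directions for different members. It was the highest of its group for Sirt2 to Sirt7 and the lowest for Sirt1, Ppargc1a and Ppargc1b. Across all 6 livers with each group centred on its own mean, Sirt7 and Ppargc1a had a Pearson r of -0.97 in log2 CPM, Sirt1 and Sirt2 of -0.90, Sirt2 and Sirt4 of 0.88, and Sirt3 and Tfam of 0.42. Without this centring Sirt3 and Tfam had 0.95 and Sirt3 and Sirt5 0.93, values that carry the difference between the groups. Each of these describes 6 livers of 2 groups that share library depth and scaling.

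The size of these differences depended on the scaling. TMM assumes that most genes do not differ. With library totals alone, the middle value over all genes was -0.39, and with scaling by the 6 housekeeping genes of the study's prognostic signature assay it was -0.38. Among these 6 are Atp5b, Cox8a and Ndufa2, which encode subunits of mitochondrial respiratory complexes or ATP synthase. Atp5b is also in the list of hepatic PGC-1 targets below, at 0.45 under TMM. Housekeeping scaling is therefore not independent of the genes followed here. Under library totals and housekeeping scaling Sirt3 was at 0.46 and 0.45, and Ppargc1b at 0.27 and 0.29. Sirt4, Sirt5, Sirt7 and Ppargc1a lay between 0.00 and 0.11 under both. Tfam, Sirt2 and Sirt6 turned to -0.09, -0.21 and -0.31 under library totals. Relative to the median of all genes Sirt3 was at 0.85 and 0.84 and Tfam at 0.30 under both, and 9 of 10 members lay above that median under each of the 3 scalings. A change of scaling moves nearly all genes and their median by a like amount, so this sameness follows from the calculation and checks nothing. The 9 include Sirt3, chosen on its rise.

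**Figure D2:**
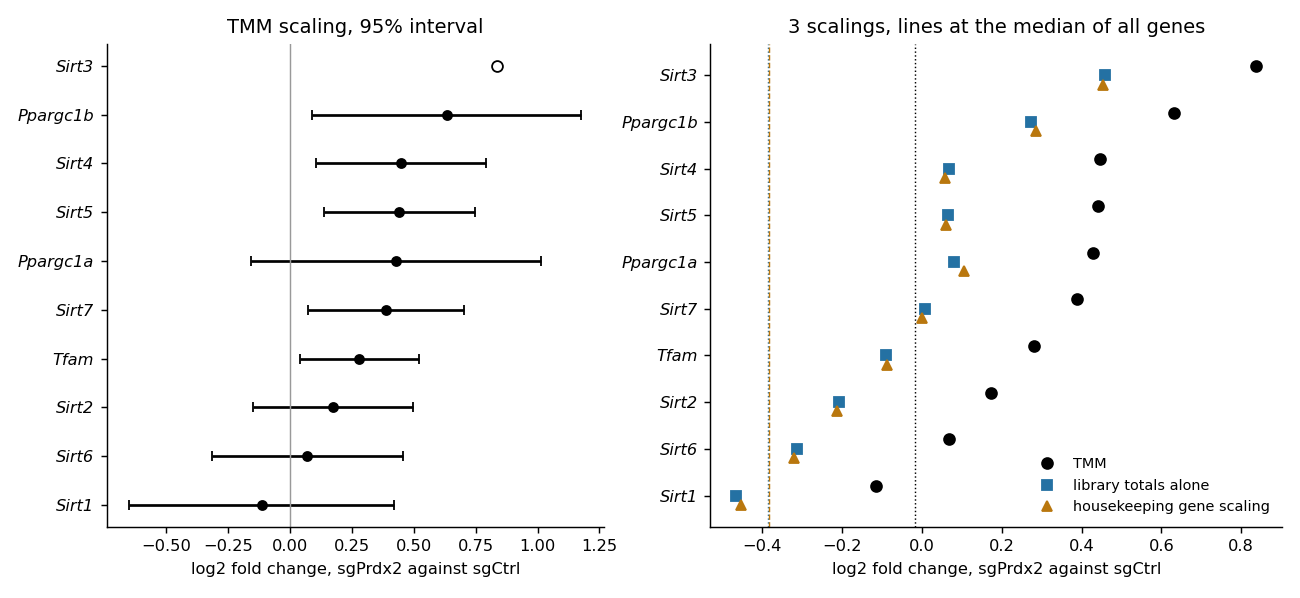
Left, log2 fold change (x axis, sgPrdx2 against sgCtrl, 3 livers each) of each gene with its 95% interval under TMM scaling (Sirt3, open circle, as an estimate only, since it was chosen by this contrast), and right, the same estimate under TMM (circles), library totals (squares) and housekeeping scaling (triangles), with dotted or dashed lines at the median of all genes for each. All estimates sit further left under the other 2 scalings, by about as much as the median of all genes, from -0.02 to -0.39 and -0.38.

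The levels themselves differed widely between members. Per kb of exon, over all 6 livers, Sirt2 was the most abundant at 19.3 CPM per kb, followed by Sirt3 at 13.7, Sirt7 at 10.4 and Tfam at 8.82 CPM per kb. Sirt4 at 4.71, Sirt6 at 3.84, Sirt5 at 2.96 and Sirt1 at 1.92 CPM per kb came next, and Ppargc1a at 1.39 and Ppargc1b at 0.916 CPM per kb were last. Only Tfam and Sirt4 among neighbours in this order had ranges that did not overlap over the 6 livers. Within a liver the order was steadier: each gene exceeded the next in 6 of 6 livers, except Sirt4 over Sirt6 in 5 of 6. These levels rest on exon length over all transcripts, 6093 bases for Sirt5, 2398 for Sirt4 and 2785 for Sirt6. Their longest transcripts had 2425, 1794 and 1891 bases, so the place of Sirt5 depends on the length used. In addition, 36.9% of the 50-base stretches of Sirt5 occur in transcripts of other genes. In sgCtrl livers Sirt3 was at 9.85 ± 1.36 and Sirt7 at 9.03 ± 0.722 CPM per kb, and in sgPrdx2 livers at 17.6 ± 1.67 and 11.8 ± 1.42 CPM per kb (SD, n = 3).

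**Figure D3:**
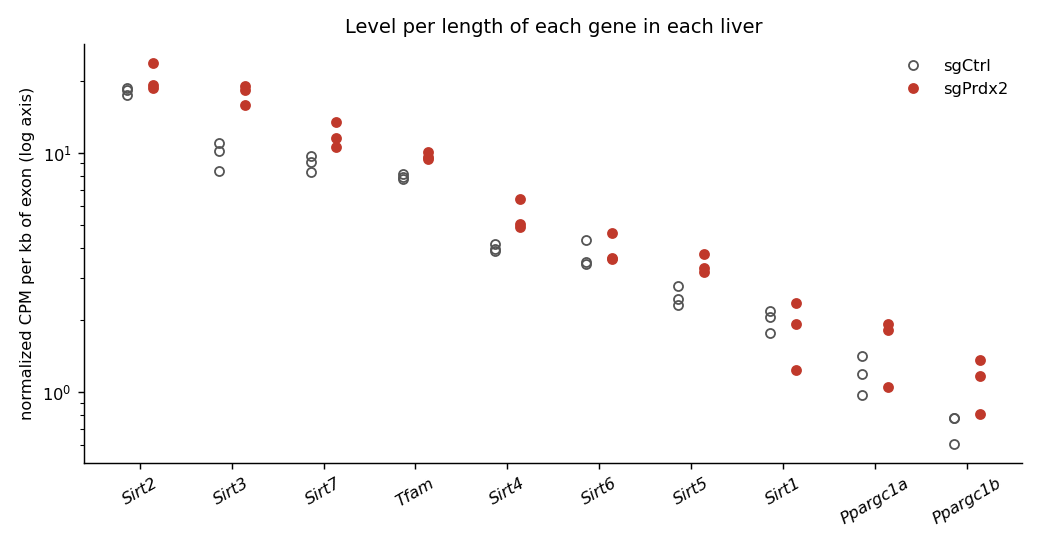
Normalized CPM per kb of exon (y axis, log scale) of each gene in each liver, sgCtrl as open grey and sgPrdx2 as filled red points, ordered by the mean over all livers. Levels run from Sirt2 at 19.3 to Ppargc1b at 0.916 CPM per kb, and the only neighbouring genes whose points do not overlap in height are Tfam and Sirt4.

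Genes that work with the members were followed in 12 lists, in which 12 genes were called in all. That count was 0 without sgCtrl 5.1, sgCtrl 7.2, sgPrdx2 1.1 or sgPrdx2 1.3, 5 without sgCtrl 7.1, 7 without sgPrdx2 3.2, and 2 under housekeeping scaling. Medians are given under TMM, and under library-total or housekeeping scaling those of 6 lists with a median above 0 turned negative, namely mitochondrial DNA maintenance, hepatic PGC-1 targets, nuclear and cytosolic substrates, import, dynamics, and the zinc-dependent deacetylases. In the same livers the hepatocyte markers had a median of 0.97 with 5 of 7 called higher, the macrophage markers one of -0.63 and the stellate cell markers one of -0.65, and their part in the values of these lists was not tested. The mRNAs encoded by mitochondrial DNA, whose transcription TFAM starts, were the list with the highest median, 0.84 against -0.02 over all genes. All 12 tested were higher in sgPrdx2 livers, 9 of them without overlap, and 4 rose in edgeR's test (adjusted p of 0.0358 to 0.0491): mt-Co3 and mt-Nd6 by 0.96 and 0.89, and mt-Nd4 and mt-Cytb by 0.85 and 0.91 on the log2 scale. Cytochrome b, mt-Cytb, was at 4585, 6749 and 6167 CPM in sgCtrl and 10750, 11588 and 10554 CPM in sgPrdx2 livers, every sgPrdx2 liver far above the sgCtrl livers. Of the stretches of 50 bases, none of mt-Cytb or mt-Nd6 but 62.2% of mt-Nd4 and 99.9% of mt-Co3 also occur in other transcripts, so the counts of the latter pair are uncertain. The share was also 98.0% for mt-Nd3, 100% for mt-Co2, 99.5% for mt-Atp6 and 51.1% for mt-Co1. It was 0 for mt-Nd1 and mt-Atp8, 8.19% for mt-Nd2 and 7.61% for mt-Nd5. The list median and the counts of genes higher therefore rest in part on genes with uncertain counts. The median of this list fell to 0.48 with a correction for transcript length and GC content.

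The nuclear genes that transcribe and maintain mitochondrial DNA had a lower median than the mRNAs it encodes. Of 19 genes edgeR called none, with 5 unadjusted p under 0.05, and DESeq2 called 2. As background for this list and those below, 4241 of all 17032 genes tested had an unadjusted edgeR p under 0.05. DESeq2 called 2048 of the 28631 genes it fitted, but 13302 of these had no adjusted p and could not be called. All 19 genes of this list had one. In this list 8 were higher without overlap, and the median was 0.22. The smallest p values belonged to Mterf2, a mitochondrial transcription termination factor, at 0.77 (edgeR adjusted p = 0.0818), and Polg2, the accessory subunit of the mitochondrial DNA polymerase, at 0.56 (edgeR adjusted p = 0.101). Mitochondrial import and chaperone genes, porins included, had 0 of 15 called by edgeR (2 unadjusted p under 0.05, 0 called by DESeq2) and a median of 0.11. The smallest p values belonged to Timm44 at 0.40 and Phb2 at 0.43 (edgeR adjusted p of 0.135 and 0.1399). Genes of mitochondrial fusion, fission and mitophagy had 0 of 11 called by edgeR (1 unadjusted p under 0.05, 1 called by DESeq2) and a median of 0.16, with the smallest p values for Pink1, a kinase that marks damaged mitochondria, at 0.48, and Bnip3, a mitophagy receptor, at 0.56 (edgeR adjusted p of 0.0991 and 0.227).

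The partners through which PGC-1 acts gave no call. Of 16 partners and regulators edgeR called none, with 1 unadjusted p under 0.05, DESeq2 called 0, and the median was -0.07. Among them 1 was higher and 1 lower without overlap. Pprc1, the third gene of the PGC-1 family, was at -0.54 (edgeR adjusted p = 0.147), opposite in sign to Ppargc1a and Ppargc1b, and Hnf4a, a hepatocyte transcription factor, at 0.30 (adjusted p = 0.229). Among 13 hepatic PGC-1 target genes 1 rose, Apoc3, an apolipoprotein of triglyceride-rich particles, by 1.41 on the log2 scale (edgeR adjusted p = 0.0409). Apoc3 went from 549 ± 167 to 1457 ± 338 CPM (SD, n = 3), and the median of that list was 0.31. In that list 5 genes were higher and 2 lower without overlap. The lower pair, named after their values were seen, were Pdk4, a brake on pyruvate oxidation, at -0.74, and Fgf21, a fasting hormone, at -1.32 (edgeR adjusted p of 0.144 and 0.161).

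Known substrates of the sirtuins were followed as RNA, although sirtuins act on the proteins. Of 18 substrates of the mitochondrial sirtuins, listed by sirtuin and not by their own place in the cell, 2 rose. Uox, urate oxidase, which SIRT5 can deacetylate, rose by 0.99 on the log2 scale (edgeR adjusted p = 0.0373). Ppif, cyclophilin D of the permeability pore and a SIRT3 substrate, rose by 0.69 (edgeR adjusted p = 0.0494). Uox was at 639, 832 and 847 CPM in sgCtrl and 1488, 1589 and 1522 CPM in sgPrdx2 livers, with no overlap. In this list 12 were higher and 1 lower without overlap, and the median was 0.40. Of 13 nuclear and cytosolic substrates edgeR called none, with 6 unadjusted p under 0.05, DESeq2 called 3, and the median was 0.20, with Nr1h4, the bile acid receptor FXR, at 0.59 and Pck1, a gluconeogenic enzyme also listed as a PGC-1 target, at 1.24 (edgeR adjusted p of 0.0668 and 0.0769). Pck1 was at 610 ± 207 CPM in sgCtrl and 1444 ± 523 CPM in sgPrdx2 livers (SD, n = 3).

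The RNAs of enzymes that make NAD+, which sirtuins consume, gave calls in 1 direction, in livers whose summed hepatocyte markers were also higher (76470 to 81618 against 130489 to 177047 CPM). The part of the latter was not tested. Of 16 genes of NAD+ synthesis 3 rose and none fell, with a median of 0.56 and 10 higher without overlap. Haao and Afmid, enzymes of the path from tryptophan, rose by 1.36 and 1.03, and Naprt, which uses nicotinic acid, by 0.79 on the log2 scale (edgeR adjusted p of 0.0409, 0.0385 and 0.0486). Haao was at 102, 175 and 111 CPM in sgCtrl and 339, 260 and 394 CPM in sgPrdx2 livers, Afmid at 5.89, 6.94 and 6.49 against 15.8, 12.9 and 10.8 CPM, and Naprt at 76.6, 78.5 and 77.2 against 126, 112 and 165 CPM. All 3 genes separated the groups, Naprt with almost no spread among sgCtrl livers.

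Nampt, which returns nicotinamide to NAD+ and was not named by the rule, lay at 107, 72.3 and 77.9 CPM in sgCtrl and 80.0, 72.6 and 59.1 CPM in sgPrdx2 livers (log2 fold change -0.28, edgeR adjusted p = 0.393). It was singled out after its values were seen, and its groups overlapped. Of 8 genes that consume NAD+ or nicotinamide 1 fell, Bst1, an NAD+-cleaving enzyme of the cell surface, from 2.75 ± 0.102 to 1.46 ± 0.110 CPM (SD, n = 3). Its log2 fold change was -0.91 (edgeR adjusted p = 0.0486), and the list median was -0.01. Among these 8 genes 1 was higher and 3 lower without overlap. The summed macrophage markers were 1215 to 1649 CPM in sgCtrl and 869 to 896 CPM in sgPrdx2 livers, and their part in the fall of Bst1 was not tested.

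Other deacetylases and the AMPK subunits gave lists centred near all genes. Of the 11 zinc-dependent histone deacetylases, which do not need NAD+, 1 rose, Hdac11, from 75.9 ± 2.90 to 117 ± 11.99 CPM (SD, n = 3). It rose by 0.63 on the log2 scale (edgeR adjusted p = 0.0486), and the list median was 0.01. Of these deacetylases 4 were higher and 4 lower without overlap, against 34.2% of all genes tested in either direction. Of 10 AMPK subunits and upstream kinases edgeR called none, with 2 unadjusted p under 0.05, DESeq2 called 0, and the median was -0.02. Prkaa1, a catalytic subunit, was at -0.39 and Stk11, the upstream kinase LKB1, at 0.36 (edgeR adjusted p of 0.147 and 0.194). Among these genes 2 were higher and 3 lower without overlap.

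**Figure D4:**
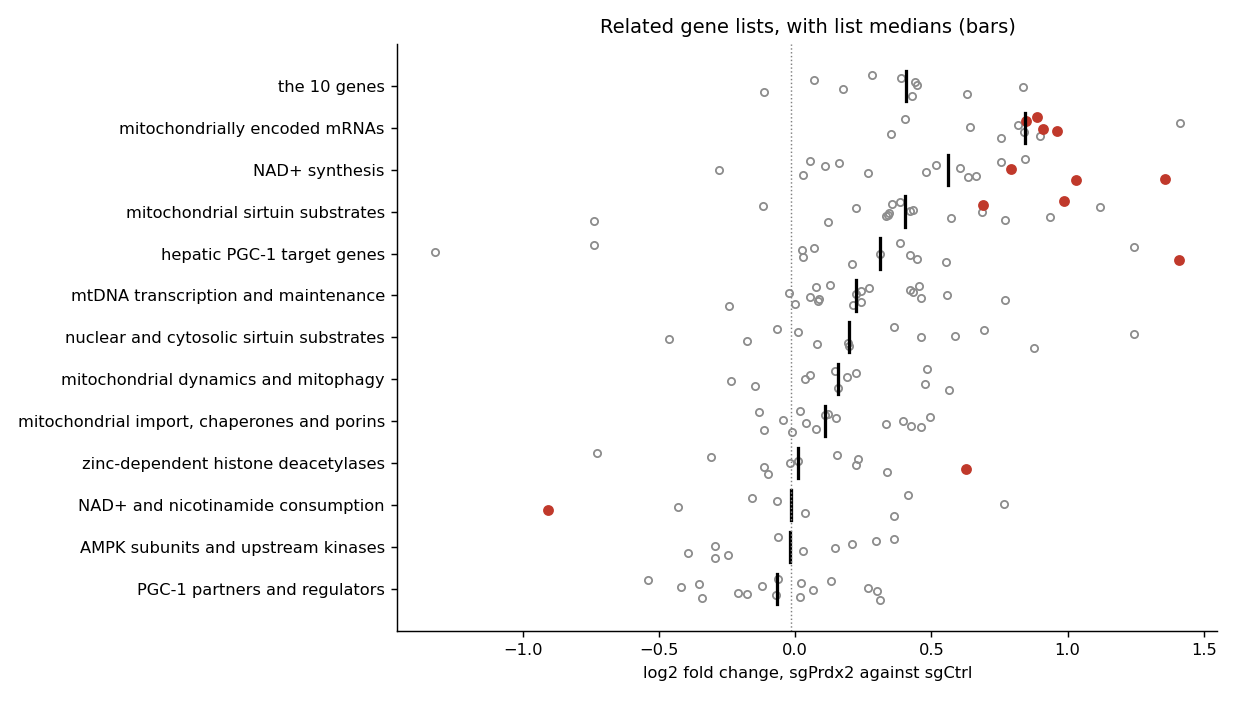
Log2 fold change (x axis, sgPrdx2 against sgCtrl, 3 livers each) of every tested gene of the 12 lists and of the 10 genes reported here (top), with black bars at list medians, a dotted line at the median of all genes, and filled red points for list genes with an adjusted p under 0.05. The mitochondrially encoded mRNAs have the highest median, 0.84, and the partners and regulators of PGC-1 the lowest, -0.07.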

How the data were processed

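The authors deposited whole-number counts of reads per gene for 6 livers, without normalization, on 52459 gene symbols. Processing notes in the submission name HISAT2, HTSeq, DESeq2 and the build GRCm38, while versions, annotation and strand setting are not given in the sources used here. A deposited table of the authors' own DESeq2 comparison (mean signal, fold changes and p-values) was not used. Counts were fitted in R 4.3.3 with edgeR 4.0.16 over all genes kept by filterByExpr (minimum count 10), with TMM scaling and no covariate, by the quasi-likelihood test with Benjamini-Hochberg adjustment over all 17032 genes and a threshold of 0.05. Alternatives were RLE, upper-quartile, library-total and housekeeping scaling, DESeq2 1.42.0, other filters, a threshold of 0.01, a transcript length and GC correction, and leaving out each liver. Gene positions, lengths and shared stretches come from GENCODE vM21 (GRCm38), which matched 97.1% of tested genes and need not be the authors' annotation. Exon length is the union over transcripts. The members and lists were chosen with earlier results of these data known, and Sirt3 on its rise. Named in each list were up to 6 called genes or, where none was called, the 2 with the smallest p, other genes being marked where named, and beside each member its neighbours. Likeness to Sirt3 used log2 of CPM plus 0.5. Figures were drawn with matplotlib. Each liver is 1 mouse, no batch is given, and no group had more than 3 livers.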

Additional observations from a re-analysis of the deposited data

How the results depend on the processing

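Over all genes the count of calls was 567 and became 3247 with library totals (206 higher, 3041 lower, against 305 and 262), 989 with housekeeping scaling (70 and 919), 2048 with DESeq2 (1162 and 886), 1128 without a filter on low counts and 1051 with the length and GC correction. At a threshold of 0.01 it was 0, and without 1 liver it ranged from 0 to 619. Of the 10 members 1 was called, and 0 were with library totals, with housekeeping scaling and at 0.01, and 0 to 1 without 1 liver. In the 12 lists 12 genes were called, 21 with library totals, 2 with housekeeping scaling, 36 with DESeq2, 20 without a filter, and 0 to 7 without 1 liver. The log2 fold change of Sirt3 was 0.45 to 0.93 over 14 alternatives. Library totals and housekeeping scaling turned Sirt2 to -0.21 in both, Sirt6 to -0.31 and -0.32, and Tfam to -0.090 and -0.087. Sirt6 was also at -0.11 with the length and GC correction and -0.048 without sgPrdx2 liver 3.2 (-0.048 to 0.19 without 1 liver), and Sirt1 at 0.11 without that liver (-0.31 to 0.11). The same scalings turned the list medians of mitochondrial DNA maintenance (-0.15 and -0.16), hepatic PGC-1 targets (-0.077 and -0.086), nuclear and cytosolic substrates (-0.16 in both), import (-0.26 in both), dynamics (-0.22 and -0.21) and the zinc-dependent deacetylases (-0.36 in both). These scalings place the median of all genes at -0.39 and -0.38. Sirt4, Sirt5, Sirt7, Ppargc1a and Ppargc1b stayed above 0 under all 14 alternatives. With 3 livers a group, leaving one out also leaves fewer samples to estimate the spread. No paired analysis was possible because the groups share no replicate numbers.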
